A study of Homo sapiens with 2 samples.

Results

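The SNTG1 hub is the 5-kb bin from 49980001 to 49985000 on chromosome 8 (hg38), which lies inside the gene SNTG1. It was selected on its number of listed interactions in a TCF3::HLF-HiChIP, and that number is given here as a description, without a test. The members are the interactions with this bin at 1 end, together with all interactions in which a bin touched SNTG1 or the 10 kb around it. They numbered 61 of the 49245 interactions in the list, 51 with the hub bin and 10 without it. The 10 kb added none, since all 61 touched the annotated gene itself.

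HiChIP joins chromatin immunoprecipitation to proximity ligation, so that pairs of distant DNA segments are recovered when a protein of interest sits on at least 1 of them. The samples came from HAL-01, an established leukemia line that carries t(17;19) and Cas9GFP, and an sgRNA against wild-type TCF3 had been used to select stable knockout cells. With wild-type TCF3 gone, the E2A antibody against TCF3 recovers the fusion TCF3::HLF. Knockout cells were grown as colonies after strong dilution, so the line may stand for 1 clone. The design held 1 condition with 2 replicates, which the authors merged before calling, so no value below has a replicate error and no comparison between conditions exists. Contact counts (read pairs joining 2 bins, not normalized) are given with exact Poisson 95% intervals. Such an interval reflects counting alone, and because duplicate read pairs were kept, the true uncertainty is larger. The contact counts of the whole list added up to 1268490, with a median of 24 for each interaction.

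SNTG1 encodes γ1-syntrophin, a cytoplasmic adapter with a PDZ domain that belongs to the dystrophin-associated protein complex and is known mainly from neurons of the brain. The fusion TCF3::HLF carries the transactivating part of TCF3 and the bZIP DNA binding domain of HLF, which recognizes palindromic motifs of the PAR bZIP type. Bins that hold a binding site of the immunoprecipitated protein tend to collect many interactions in a HiChIP, whereas a gene can be touched by interactions without being transcribed. Expression was not measured in these data.

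SNTG1 spans 49909789 to 50796692 on the plus strand, 887 kb in all. The hub bin begins 70.2 kb into the gene, within intron 1 of the canonical transcript of 19 exons, and this intron alone runs over 260 kb, from 49912232 to 50172560. None of the exons of the 24 annotated SNTG1 transcripts overlaps the bin. The bin holds 2 exact HLF motifs (TTACGTAA or TTATGTAA on either strand), both of the form TTATGTAA, at 49983177 to 49983184 and at 49983546 to 49983553. At least as many motifs were found in 22.6% of the anchor bins with 10 or more interactions and in 6.64% of all anchor bins, where an anchor bin is any bin at an end of a listed interaction. The G+C content of the hub bin was 34.7%, against a median of 40.8% in the bins with 10 or more interactions, among which it ranked 1035 of 1126. Of its 4970 31-mers, 94.7% occurred once in the genome, so most of the bin is sequence to which reads can be assigned uniquely.

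Of the 53535 anchor bins, 1126 had 10 or more interactions (2.1%). With 51, the SNTG1 hub ranked 2 by number of interactions, after a bin with 65 and just before a bin with 50. By summed contact count it ranked 4, with 1700 read pairs. The center of these contacts was a single bin wide. All 51 interactions ended in the hub bin without a merged neighbor on the hub side, and the bins from 30 kb below to 40 kb above it, other than the hub, were not at an end of any interaction. Interactions shorter than 50 kb were outside the range of the caller, so contacts of the hub with its direct surroundings are not measured here. The 51 interactions fell into 49 merged groups that together held 73 significant bin pairs, and in each of these groups all bin pairs were significant. A merged group of more than 1 bin pair contained 14 of the 51 interactions, against 7.69% of all interactions. The other 37 (72.5%) were single bin pairs. Counted by group, 12 of the 49 merged groups of the hub held more than 1 bin pair. In the 3 anchor bins closest in number of interactions, described below, it was 7 of 50, 10 of 46 and 10 of 42, so bins of similar number can show a similar share. A q-value under 1e-05 was reached by 33 of the 51 interactions (64.7%), close to the 66.5% of the whole list, and the largest q-value was 0.00637.

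The strongest contacts lay within SNTG1, on both sides of the hub and close to it. The largest contact count, 126 (Poisson 95% interval, 105 to 150; listed P value 3.06e-80), joined the hub with the bin starting at 49925001, 55 kb toward the gene start in the same intron. This was 4.85 times the median of 26 over all listed interactions at the same distance, taken as distances within 5%, and it ranked 3 among 1188. On the other side, the bin starting at 50030001, 50 kb away, reached 92 read pairs (74.2 to 113; P value 3.07e-50), or 3.41 times the median. The bins starting at 50055001 and 50130001 followed with a contact count of 83 each (66.1 to 103). The latter lies 150 kb away, and its contact count was 3.46 times the median at that distance, rank 12 of 1481. The bin starting at 50065001 had 76 (59.9 to 95.1), 2.92 times the median. The intervals of the contact counts of 83 and 76 overlap, and their order was not tested. These 5 interactions all joined 2 bins of intron 1, and they also had the 5 smallest P values of the hub.

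Near the hub many contacts formed continuous stretches. On the side of the gene start, all 6 bins nearest to the hub within the range of the caller were significant, as a merged group from 49905001 to 49935000 with a sumCC of 409 (the contact counts added up over the group). This stretch includes the annotated first exon of SNTG1. The bin starting at 49910001, which holds exon 1 and a start of the lncRNA ENSG00000289095, had a contact count of 58 (44.04 to 74.98), 2.23 times the median at 70 kb, and 4 exact HLF motifs. On the other side, 17 of the 25 bins from 50030001 to 50155000 were significant, with a group from 50030001 to 50060000 (sumCC 334) as the longest. In all, the 12 interactions within 200 kb carried 42.4% of the contact count of the hub.

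**Figure D1:**
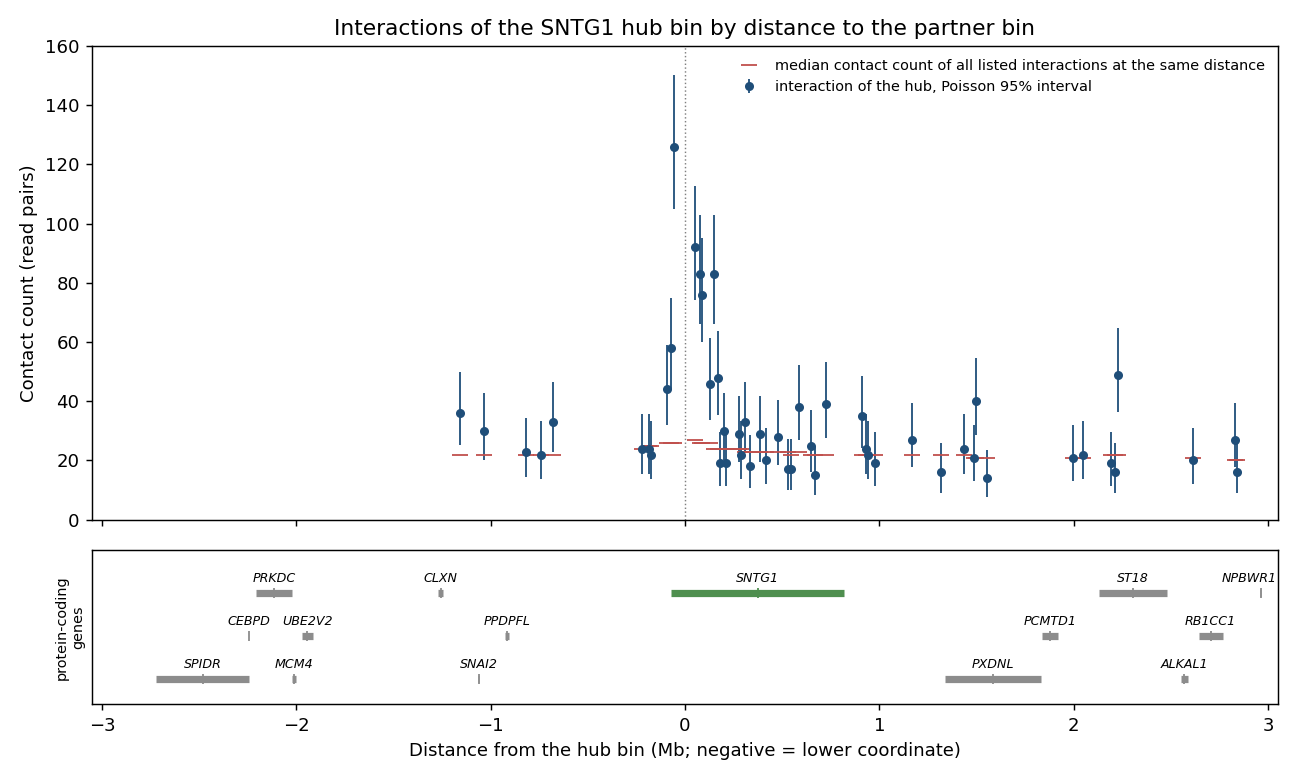
Contact count (read pairs, y axis) of each of the 51 interactions of the hub against the distance from the hub bin to its partner bin in Mb (x axis), with points and bars for the count and its Poisson 95% interval, red dashes for the median of all listed interactions within 5% of that distance, and the protein-coding genes of the region below. Counts of 76 to 126 occur only within 150 kb of the hub, and partners at lower coordinates end at 1.16 Mb whereas those at higher coordinates reach 2.84 Mb.

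Over the whole gene, 24 of the 51 partner bins overlapped SNTG1 and contributed 1010 of the 1700 read pairs (59.4%). Of these bins, 22 lay entirely in introns, and the other 2 touched exon 1 and exon 17. From 200 kb onward no contact within the gene reached 2 times the median of its distance. In intron 2, 7 partner bins had contact counts from 18 to 33. Farther along, the bin starting at 50565001 in intron 12 had 38 (26.9 to 52.2), 1.65 times the median at 585 kb, and the bin starting at 50705001 at exon 17 had 39 (27.7 to 53.3), 1.77 times the median at 725 kb. The lowest within the gene was 15 (8.40 to 24.7), at 50650001 in intron 13. The last part of the gene, after the bin at exon 17, was not reached by the hub.

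Upstream of SNTG1 the hub had 9 partner bins, with contact counts from 22 to 44. The highest was at 49885001, 95 kb from the hub and before the start of the gene, with 44 (32.0 to 59.1), 1.69 times the median at that distance. The farthest were also above the median of 22 for their distance. The bin starting at 48820001, at 1.16 Mb, had 36 (25.2 to 49.8; 1.64 times, rank 44 of 759) and overlaps the lncRNA ENSG00000286878. The bin starting at 48945001 had 30 (20.2 to 42.8; 1.36 times), and lies 23.3 kb from the start of SNAI2, which encodes a zinc finger repressor known from epithelial-mesenchymal transition. No partner was listed farther in this direction, although 15 other bins within reach there were anchors of other interactions. The smallest contact count listed anywhere was 10 between 1 and 2 Mb and 11 beyond 2 Mb. For the hub itself it was 14, at 1.555 Mb with a q-value of 0.00591. Contacts of the hub near or below that level may therefore have gone unlisted. SPIDR and PRKDC, both with roles in DNA repair, MCM4, a subunit of the replicative helicase, and CEBPD, a bZIP factor gene, lie in that stretch and had no listed interaction with the hub.

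Downstream of the gene, 18 partner bins followed at distances from 910 kb to 2.84 Mb, with contact counts from 14 to 49. The first 5, between 50890001 and 51155000, overlap no annotated gene. They had contact counts from 19 to 35, the highest of them in the bin starting at 50890001 (24.4 to 48.7; 1.59 times the median at 910 kb).

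In PXDNL, which encodes a peroxidasin-like protein, 4 partner bins were listed. The bin starting at 51475001, at 1.495 Mb, had the highest contact count of them, 40 (28.6 to 54.5, P value 3.97e-21). This was 1.90 times the median and rank 9 among 651 interactions at that distance. The other 3 had contact counts of 24, 21 and 14. The interval of 14 (7.65 to 23.5) does not overlap that of 40. Those of 24 (15.4 to 35.7) and 21 (13.0 to 32.1) do, but an overlap of intervals does not decide whether 2 counts differ, and their difference from 40 was not tested.

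ST18 encodes a zinc finger transcription factor of the MYT family and lies more than 2 Mb from the hub. It held 3 partner bins. The bin starting at 52210001, 2.23 Mb away, was joined to the hub by 49 read pairs (36.3 to 64.8; P value 2.52e-27), as a single bin pair. This was 2.23 times the median of 22 at that distance, and no other of the 481 interactions at that distance had a higher count. With distances within 10% it ranked 3 of 1039. The other partner bins in ST18, starting at 52170001 and 52190001, had 19 (11.4 to 29.7) and 16 (9.15 to 25.98), both below the median of 22, and their intervals do not overlap that of 49.

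The 3 partners farther out lie in no annotated gene. The nearest of them, starting at 52595001, had 20 (12.2 to 30.9). The most distant, starting at 52820001 at 2.84 Mb, had 16 (9.15 to 25.98), and the one starting at 52810001 had 27 (17.8 to 39.3), which is 1.35 times the median. These last ones lie beyond RB1CC1, whose product FIP200 acts in autophagy, and no interaction of the hub touched that gene or the 10 kb around it.

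**Figure D2:**
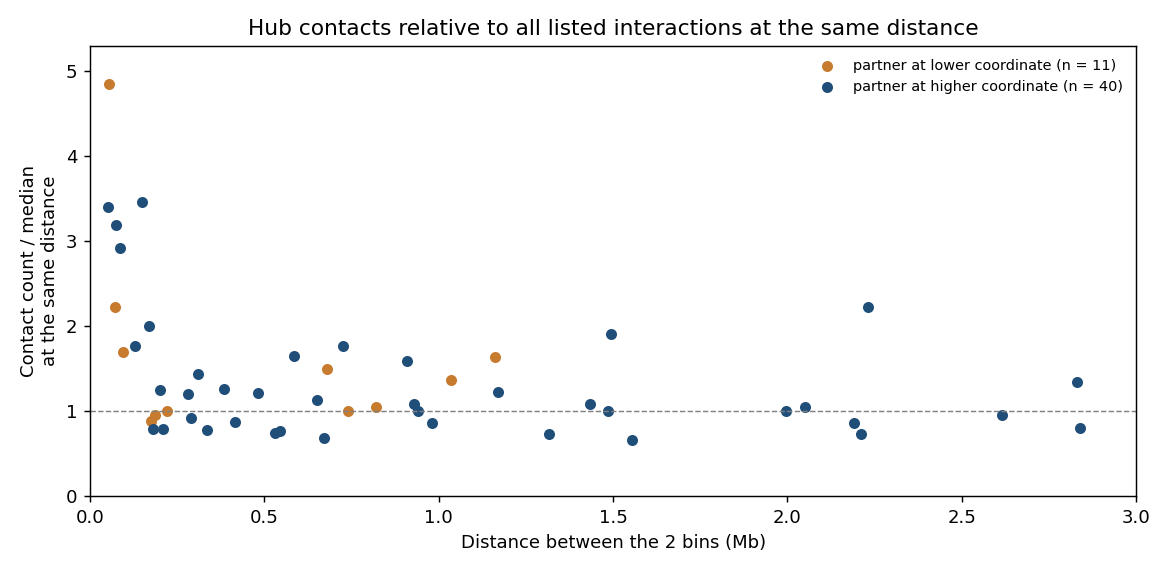
Contact count of each of the 51 hub interactions divided by the median contact count of all listed interactions within 5% of the same distance (y axis) against the distance between the 2 bins in Mb (x axis), with partners at lower and higher coordinates in different colors and a dashed line at 1. Ratios of 2 or more occur for 7 partners within 200 kb and for the partner in ST18 at 2.23 Mb.

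Across all 51 interactions the median ratio to the same distance was 1.09, with a range from 0.67 to 4.85, and 17 lay below 1. A ratio of at least 2 was reached by 8 (15.7%), against 3.12% of all interactions. Of these, 7 were within 200 kb and the other was the contact with ST18. In the 3 anchor bins closest in number of interactions, described below, such a ratio was reached by 3 of 50, 8 of 49 and 9 of 44 interactions. The share of the hub was thus not particular to it. The coverage of single bins is not in the list, and its part in the number or the size of these contacts was not tested.

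The hub reached far to one side. Of its interactions 40 (78.4%; Wilson 95% interval, 65.4 to 87.5%) went toward higher coordinates, the direction in which SNTG1 is transcribed, and 11 went the other way. By this share it ranked 240 among the 1126 bins with 10 or more interactions, for which the median share on the larger side was 65%. Distances over 1 Mb accounted for 16 of the 51 interactions (31.4%), against 13.7% of the list. The 3 anchor bins closest in number of interactions, described below, also had shares above that of the list. By the share over 1 Mb the hub ranked 80 among the 1126 bins, for which the median was 10%. By its longest distance it ranked 74, and by the stretch between its outermost partners 140. A distance over 2 Mb was found for 7 of the 51 (13.7%), against 4.01% of the list, and no other anchor bin of the genome had more than 5. At a q-value under 0.001 this lead was kept, with 6 for the hub and at most 4 for any other bin. It was lost or tied under other thresholds. At a q-value under 1e-05 the hub had 3 interactions over 2 Mb and another bin had 4, and at a contact count of at least 20 the hub and another bin both had 4.

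Most partners of the hub were not promoters. A start site of a protein-coding gene lay within 10 kb of 8 of the 51 partner bins (15.7%), whereas the share among all anchor bins was 37.5%. Only 15 protein-coding genes lie within 3 Mb of the hub. The share among other bins of this region is not given here, so the lower share may belong to the region rather than to the partners. Of these 8 bins, 6 were at start sites of SNTG1 transcripts, at the gene start or inside the gene, with contact counts from 15 to 58. The others were the bin starting at 51415001, 5.58 kb from an annotated start of PXDNL, with 24 (15.4 to 35.7), and the ST18 bin starting at 52210001, 2.78 kb from an annotated start inside ST18. The main start sites of PXDNL and ST18, at the far ends of these minus-strand genes, were 166 and 134 kb from the nearest partner bin. With lncRNA genes included, 12 partner bins lay within 10 kb of a start of 9 genes. These lncRNAs are annotated by identifier alone, and their contact counts with the hub ran from 16 (ENSG00000253551) to 58 (ENSG00000271148 and ENSG00000289095, which share a partner bin with the SNTG1 start). Any annotated gene was absent from 16 of the 51 partner bins.

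At least 1 exact HLF motif was present in 23 of the 51 partner bins (45.1%; Wilson 95% interval, 32.3 to 58.6%). In the same region, non-anchor bins between the outermost partners reached 36.9% (33.4 to 40.6%) and non-anchor bins 25 kb beside the partners 41.9% (32.0 to 52.4%). These intervals overlap, and a difference from the surrounding sequence was not detectable with 51 bins. The Wilson intervals, here and for the other shares, treat bins as independent. Partner bins of 1 hub share that hub and a locus, so the true uncertainty may be larger, and no difference was tested. Among all 5-kb bins of the genome the share was 30.6%, and among all anchor bins 31.5%. Partner and non-anchor bins of the region had similar median G+C contents, 36.9% and 37.5%. The motif occurred in strong and weak partners. The bin at 49925001 with the largest contact count held 2, and that in ST18 and that at 50030001 held none. A 31-mer was shared with the hub by 6 partner bins, with at most 12 shared.

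The contacts had the shape of a star. Of the 51 partner bins, 46 (90.2%) were at an end of no other listed interaction, and the others took part in at most 3. Such a share was not unusual. Among the 1126 bins with 10 or more interactions its median was 81.8%, and the hub ranked 300. Of all 53535 anchor bins, 41745 had only 1 interaction. No listed interaction joined 2 of the partner bins, also with each widened by 1 bin. A count of 0 was common, as 917 of the 1126 bins with 10 or more interactions had no interaction between exact partner bins and 575 had none between widened ones. The methods name peaks as the reference for the calling, but the list does not mark the bins with peaks, and it is not known from it whether a pair without any peak could be listed.

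The 3 anchor bins closest in number of interactions were compared with the hub. They lie in CCDC26 on chromosome 8 (128880001 to 128885000, 50 interactions), in PHACTR2 on chromosome 6 (143575001 to 143580000, 49) and outside annotated genes on chromosome 12 (108045001 to 108050000, 44). The SNTG1 hub had the most one-sided contacts of the 4, with 78.4% on the larger side against 58.0%, 65.3% and 63.6%. Its 16 interactions over 1 Mb compare with 12, 9 and 11, and its 7 over 2 Mb with 2, 0 and 3. With partner bins widened by 1 bin, 11 interactions joined partners of the CCDC26 hub and 17 those of the PHACTR2 hub, whereas the chromosome 12 hub had 1 and the SNTG1 hub 0. A motif was found in 32.0%, 32.7% and 15.9% of their partner bins, and only the interval of the last (7.93 to 29.4%) lay apart from that of the SNTG1 hub. In contact strength the SNTG1 hub was not set apart. Its median ratio of 1.09 compares with 1.05, 1.23 and 1.28, and its largest contact count of 126 with 57, 260 and 138. These are descriptions of single bins of a merged library, and no difference was tested.

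**Figure D3:**
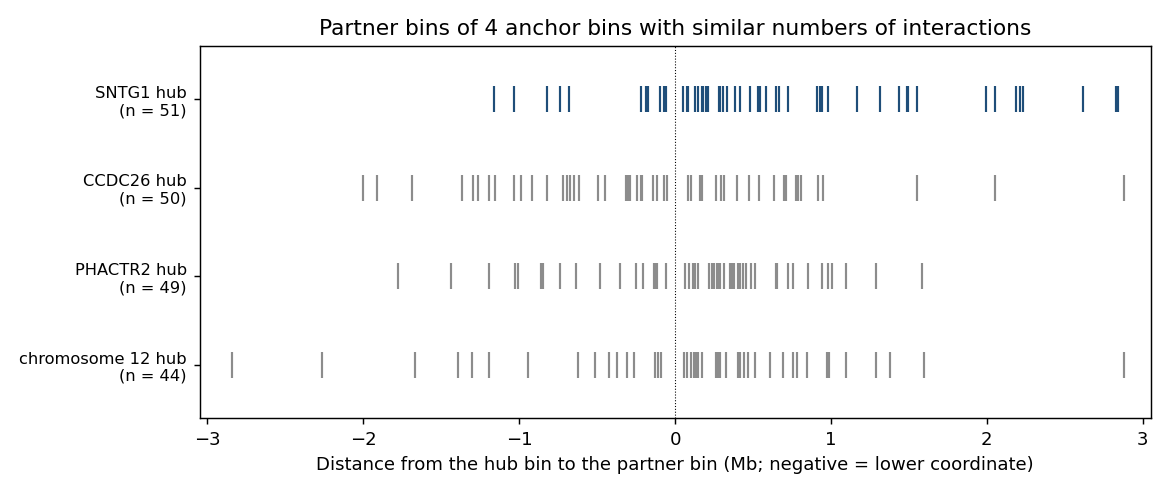
Position of each partner bin relative to its hub bin in Mb (x axis) for the SNTG1 hub and the 3 anchor bins closest in number of interactions (rows), with each tick standing for 1 interaction. Partners of the SNTG1 hub lie mostly at higher coordinates, with 7 beyond 2 Mb.

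The 10 other interactions at SNTG1 had contact counts from 12 to 42, against 14 to 126 for those of the hub. Of the 10, 6 started from 1 bin in front of the gene, at 49845001 to 49850000, and spread over the first part of SNTG1. They reached the bins starting at 49910001 (contact count 20), 49945001 (24), 50055001 (16), 50170001 (33), 50185001 (20) and 50425001 (21). The strongest, with the bin of exon 2 at 50170001, had an interval of 22.7 to 46.3 and 1.43 times the median at 325 kb. The bins starting at 49910001 and 50055001 were contacted by both this bin and the hub, with 58 and 83 read pairs from the hub. The bin at 49845001 holds no exact HLF motif and had no listed interaction with the hub itself.

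Another 3 interactions came from the bin from 50780001 to 50785000 in the last intron of SNTG1, intron 18, which holds 2 exact HLF motifs. Its contact with the bin starting at 50880001 behind the gene was the strongest of the 10, with 42 (30.3 to 56.8; P value 5.46e-27), 1.68 times the median at 100 kb. Those with 50860001 and 50470001 had 22 and 15. The remaining interaction joined intron 1, at 50025001, with the bin starting at 51870001 in PCMTD1 over 1845 kb. Its contact count of 12 (6.20 to 21.0; q-value 0.00897) was 0.57 times the median and the lowest of all 61. In total 32 of the 183 bins that overlap SNTG1 or the 10 kb around it were anchors, and apart from the hub none took part in more than 3 interactions.

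SNTG1 had the most interactions of the genes of the region, 61, of which 51 were those of the hub it was selected on. Counted for each of the 15 protein-coding genes within 3 Mb of the hub in the same way, the next was PCMTD1, which encodes a protein related to isoaspartyl methyltransferases, with 15, followed by RB1CC1 with 9. PXDNL, ST18 and SPIDR had 8 each, PRKDC 6, and MCM4, UBE2V2, PPDPFL and ALKAL1 had 1 each. CEBPD, CLXN, SNAI2 and NPBWR1 had none. Per 100 kb of gene and flanks the order differed, with 14.8 interactions for PCMTD1, 6.73 for SNTG1 and 6.28 for RB1CC1. Apart from SNTG1, the hub took part in interactions of PXDNL (4 of 8) and ST18 (3 of 8) alone. PCMTD1, which lies between them, had none of its 15 with the hub.

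Among all 20033 protein-coding genes, SNTG1 ranked 41 by the number of interactions, and 0.205% of the genes had as many or more, itself included. The median was 1. By interactions per 100 kb SNTG1 ranked 4069. The median length of protein-coding genes was 27.5 kb, so SNTG1 is far longer than most.

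γ1-Syntrophin works in a complex, and other genes of the dystrophin complex and its known partners were counted in the same way. The tally covers 18 genes, SNTG1 included, and not the whole list. Of these 18, 14 were touched by at least 1 interaction, against 64.3% of all protein-coding genes. They were long, with a median of 261 kb, and their median number of interactions was 5.5. UTRN, which encodes the dystrophin homolog utrophin, had 52, with at most 10 at a single bin. SNTB1, which encodes β1-syntrophin and also lies on chromosome 8, had 35, of which its busiest bin had 20. DTNB, for β-dystrobrevin, had 29, and SSPN, for the membrane protein sarcospan, had 22. Per 100 kb, SNTB1 (11.8), SSPN (11.2), DTNB (9.16) and UTRN (8.85) were all above SNTG1.

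SNTG2, for γ2-syntrophin, had 12 interactions, and SNTB2, for β2-syntrophin, had 0. DMD, the dystrophin gene and at 2242 kb the longest of the list, had 6, or 0.265 per 100 kb. DAG1, for dystroglycan, had 5, DTNA, for α-dystrobrevin, 4, and NOS1, the neuronal nitric oxide synthase gene, 7. Of the sarcoglycan genes counted, SGCD had 8, SGCZ and SGCE had 3 each, SGCB had 1, and SGCA had 0, as did DGKZ and DRP2. The hub in SNTG1 was selected on its number of interactions, so its lead over the busiest bins of the other genes follows from that selection.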

How the data were processed

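According to the methods, the authors trimmed HiChIP reads (TrimGalore 0.6.6), merged the replicates, aligned to hg38 with BWA-MEM, parsed pairs without deduplication and called interactions with FitHiChIP (5-kb bins, 50 kb to 3 Mb, q-value under 0.01, nearby contacts merged) with MACS2 peaks as reference. The FitHiChIP version is not given in the sources used here. The authors deposited raw contact counts and their group sum (sumCC), a p-value and q-value, and the fraction of significant bin pairs in each merged group. The sumCC is repeated for interactions of 1 group and was counted once.

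Members, gene lists and measures were chosen with earlier results of these data known. Named genes were SNTG1, its neighbors, those with starts at partner bins and the dystrophin complex list, of which 2 genes are not reported here. Named interactions were the 5 of the hub with the largest contact count, smallest P value or longest distance, with others chosen after their values were seen. Comparison hubs were the 3 bins nearest in number of interactions. Genes came from GENCODE release 44 on hg38, and 0 bins passed a chromosome end. Positions are 1-based. No test was run, as the design has 1 condition in 1 merged list. Functions were tested on simulated data. The tools were scipy 1.17.1, pandas 2.3.3, numpy 2.4.6 and matplotlib 3.10.9 under Python 3.11.15.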

Additional observations from a re-analysis of the deposited data

How the results depend on the processing

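Of 39 values under alternative settings, 31 stayed within 1.5 times the count or within the interval of the value reported. At a q-value under 1e-05 the hub had 33 interactions (rank 3) and 39 touched SNTG1, since fewer interactions are left by construction. With distances up to 1 Mb the hub had 35 interactions and ranked 5. Merged bin ranges or a hub widened by 1 bin left its number at 51. The share of partner bins with an HLF motif was 1.96% with TTACGTAA alone and 82.4% with partners widened by 1 bin, which searches more sequence. Start sites of 3 genes rather than 9 lay inside partner bins. For the number of hub interactions over 2 Mb, the alternatives were chosen after seeing the data. It was 6 at a q-value under 0.001, 3 at a q-value under 1e-05 and 4 at a contact count of at least 20. With 2.5 Mb as the distance it was 3, where another bin also had 3. The median ratio to the same distance ran from 1.07 to 1.21. No paired analysis was possible because the authors merged the replicates, and neither replicate could be left out. At this depth a contact count of 24 has a wide counting interval, from 15.4 to 35.7.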
